A study of Mus musculus with 20 samples.

Results

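The 8 genes followed here are genes of vascular inflammation, measured across 20 libraries of mouse abdominal aorta: Vcam1, Icam1, Sele and Selp, which encode adhesion molecules of the vessel lining, the cytokine genes Tnf, Il1b and Il6, and Nfkbia, which encodes the inhibitor IκBα. They were chosen by name, and the value of each gene is the sum of the FPKM (fragments or reads per unit length of transcript, scaled to the library total) of its Ensembl transcripts under GENCODE M21 on mm10. They are 8 of 42890 genes with a value. Of these 8, 6 reached at least 1 FPKM in at least 5 libraries and entered the test across 15010 genes, while Sele and Il6 did not. The study set C57BL/6 wild type mice against mice lacking Rab22a, a small GTPase of endosomal traffic, each given saline or angiotensin II (AngII, a peptide that constricts arteries and raises blood pressure) at 500 ng/kg/min for 14 days. Crossing the 2 genotypes with the 2 treatments gives 4 groups, and each holds 5 libraries. The labels give neither age, sex nor the design of the knockout allele. By its title the study asked whether loss of Rab22a prevents the hypertension and vascular dysfunction that AngII causes. The RNA is total RNA of dissected aorta, depleted of ribosomal RNA, so it mixes the cells of the vessel wall with any tissue left on it. In such bulk samples fewer cells of a type and less RNA per cell cannot be told apart.

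The adhesion molecules act in sequence on endothelium: P-selectin (Selp) and E-selectin (Sele) catch rolling leukocytes, and ICAM-1 and VCAM-1 bind leukocyte integrins and arrest them. TNF, interleukin 1β and interleukin 6 are cytokines made largely by macrophages and other immune cells. TNF and interleukin 1β activate NF-κB, a family of transcription factors that induces many of these genes, and among them Nfkbia, whose product holds NF-κB in the cytoplasm and so closes a feedback loop. VCAM-1 and ICAM-1 are also made outside endothelium, including by stromal cells and leukocytes of lymph nodes.

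RefSeq (GRCm38.p6) gave the 250 bases before the start site for 7 of the 8 genes, all but Vcam1. A 10-base κB consensus, searched on both strands, matched in 2 of these 7 windows, those of Nfkbia and Il6, and in 7.25% of all 32851 windows of that length. The 2 are shown because they hold the match, which is in capitals, and both are printed 5′ to 3′ on the strand of the gene.
Nfkbia: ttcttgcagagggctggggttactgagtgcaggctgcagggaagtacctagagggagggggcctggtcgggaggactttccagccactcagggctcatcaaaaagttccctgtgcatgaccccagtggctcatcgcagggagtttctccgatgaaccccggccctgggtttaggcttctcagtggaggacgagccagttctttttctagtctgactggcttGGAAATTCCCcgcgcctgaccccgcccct
Il6: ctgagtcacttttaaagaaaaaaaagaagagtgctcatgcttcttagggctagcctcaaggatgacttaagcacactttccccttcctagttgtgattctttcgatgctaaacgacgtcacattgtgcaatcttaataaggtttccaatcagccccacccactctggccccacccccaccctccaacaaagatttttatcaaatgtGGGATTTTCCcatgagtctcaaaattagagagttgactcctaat
The first is chr12:55492648-55492897 on the minus strand, with the match between positions -29 and -20 from the start site on the strand opposite the gene. The second is chr5:30012864-30013113 on the plus strand, with the match between positions -44 and -35 on the strand of the gene. Of 2 other motifs searched on both strands, TGANTCA (the site of the factor AP-1, in 6.75% of all windows) matched in Sele, Selp and Il6, and TATAAA (the TATA box, in 12.4% of all windows) in Sele, Il1b and Tnf. The Icam1 window held none of the 3 motifs. A match says only that these letters are there.

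The transcript of Rab22a lay between 1.87 and 8.62 FPKM in the 10 wild type libraries and between 0.0 and 0.00563 FPKM in the 10 knockout libraries, as labelled. The values imply between 69040000 and 77140000 reads per library. The libraries also stood apart in lymphoid tissue. The level of 8 genes of lymph node stroma and follicles (mean log2(FPKM + 1) over the list, none at 0 in all libraries) ran from 0.873 to 1.64 in 5 libraries and from 2.79 to 5.33 in the other 15. The 5 were all knockouts: saline libraries 2, 4 and 5 and AngII libraries 1 and 2. In them Glycam1, a mucin made by the high endothelial venules of lymph nodes, lay between 0.0 and 3.66 FPKM, against 41.6 to 407 FPKM in the others, and Ccl21a, a chemokine of lymph node stroma, lay between 15.4 and 30.6 against 55.0 to 653 FPKM. The aorta's own markers were present throughout, with smooth muscle list levels from 6.50 to 8.35 and endothelial list levels from 4.34 to 5.16. Markers of other tissue were present too. The skeletal muscle list ran from 0.39 in knockout saline library 2 to 8.855 in wild type saline library 5. White adipocyte list levels lay between 8.056 and 8.759. The part of these 2 tissues in the group differences of the members was not tested.

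**Figure D1:**
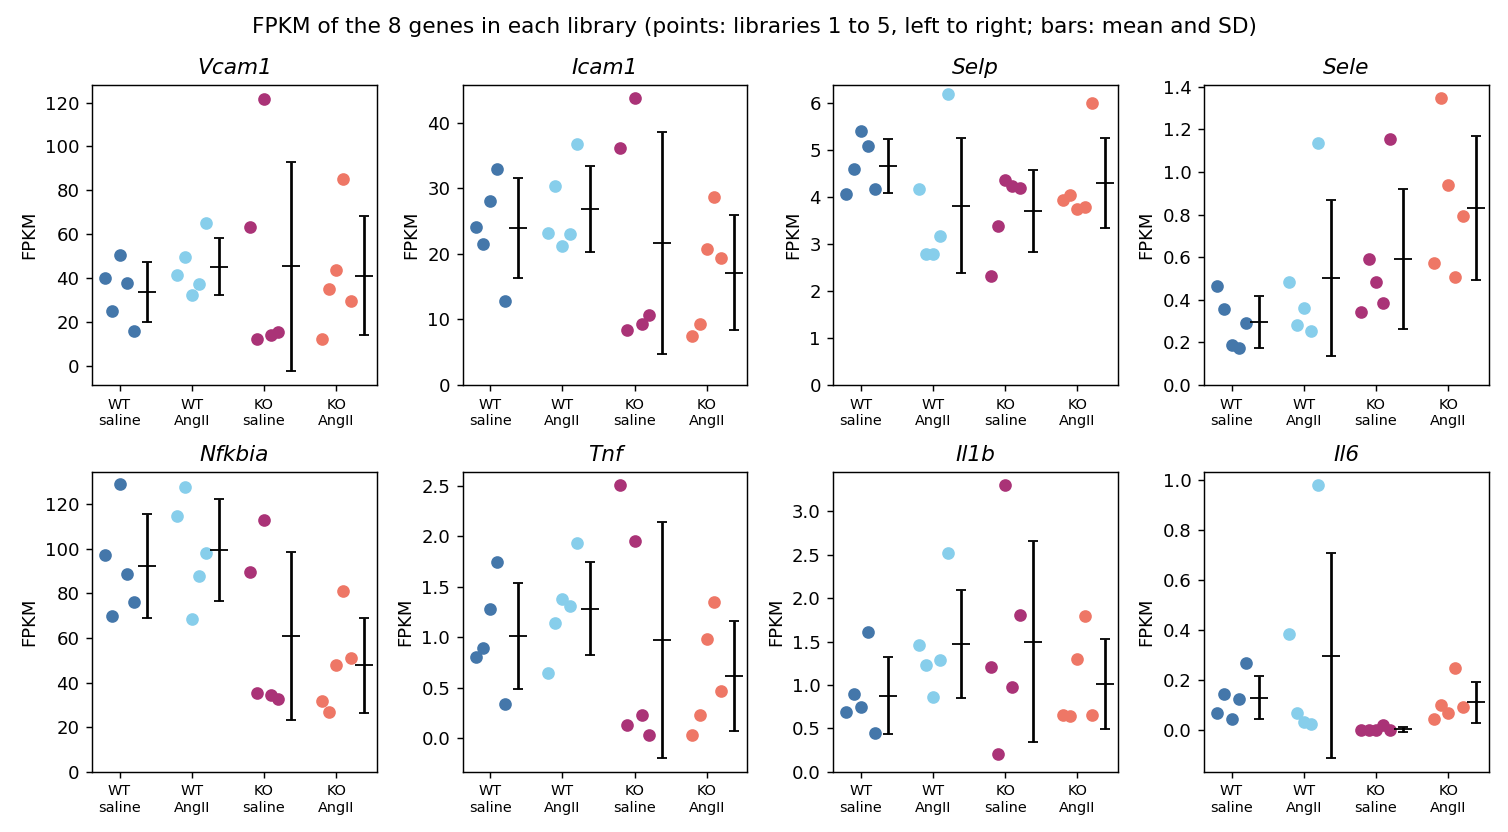
FPKM of each of the 8 genes (vertical axis, 1 panel per gene) in the 4 groups, with 5 libraries per group as points in the order of their numbers and the group mean and SD as a bar. The 5 knockout libraries of low lymph node level hold the lowest values of Icam1, Tnf and Nfkbia, and 4 of the 5 points of Il6 in knockouts with saline lie at 0.

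Nfkbia was the most abundant of the 8, with a median of 78.7 FPKM over 20 libraries, and the only one called in any comparison. In wild type mice with saline it stood at 97.2, 69.8, 129, 88.5 and 76.3 FPKM, and in wild type mice with AngII at 115, 128, 68.7, 87.9 and 98.3 FPKM. Knockouts with saline gave 89.8, 35.5, 113, 34.3 and 32.6 FPKM, and knockouts with AngII gave 31.8, 27.0, 47.8, 81.1 and 51.2 FPKM. Thus 7 of the 10 knockout libraries lay below every wild type library, and the other 3 lay within the wild type range. Averaged over the treatments, knockouts had 54.4 ± 29.7 FPKM (SD, n = 10) and wild types 95.8 ± 22.1 FPKM (SD, n = 10), and Nfkbia fell by 0.94 ± 0.24 (SE) on the log2(FPKM + 1) scale (limma, 95% interval -1.45 to -0.42, adjusted p = 0.0382). It was 1 of 6 tested members called in this comparison, in which 623 of 15010 genes (4.15%) were called.

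The call on Nfkbia is close to its threshold. With all libraries in, it was lost under quantile normalization (-0.79, limma adjusted p = 0.0558) and with the replicate number as a block (-0.94, limma adjusted p = 0.0601). The call held in 5 of the 20 fits that each left out 1 library, namely without wild type saline library 2, wild type AngII library 3, knockout saline library 1 or 3, or knockout AngII library 4, and was lost in the other 15 (limma adjusted p from 0.0108 to 0.0813). In the 5 libraries of low lymph node level Nfkbia lay between 27.0 and 35.5 FPKM. In the 5 other knockouts it lay between 47.8 and 113 FPKM, against 68.7 to 129 FPKM in the wild types. With the lymph node level as a covariate the difference was -0.45 (limma adjusted p = 0.0431), and without the 5 libraries it was -0.28 (limma adjusted p = 0.39). The fit with the covariate called 1561 genes in this comparison, against 623 in the main fit and 180 without the 5 libraries. The adjusted p-values of these fits are thus not on equal terms.

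Split by treatment, the knockout difference of Nfkbia was -0.76 (95% interval -1.49 to -0.03, limma adjusted p = 0.653) under saline and -1.12 (95% interval -1.84 to -0.39, limma adjusted p = 0.0987) under AngII. Without the 5 libraries of low lymph node level the first turned to +0.16 (limma adjusted p = 0.766) and the second was -0.73 (limma adjusted p = 0.186). That fit kept knockout saline libraries 1 and 3 and knockout AngII libraries 3, 4 and 5 alone. The libraries left out held the lowest Nfkbia values of the series, so leaving them out could only raise the knockout means. With all libraries in, neither difference passed over all genes. The difference under AngII did so without knockout AngII library 4, at -1.33 (limma adjusted p = 0.0492). AngII itself gave +0.11 in wild types (95% interval -0.62 to 0.84) and -0.25 in knockouts (95% interval -0.97 to 0.48). Changes anywhere within these intervals cannot be separated from the spread.

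Vcam1, which binds the integrin α4β1 on leukocytes, ranged 10.2-fold over the libraries. Wild types with saline had 39.8, 24.7, 50.5, 37.9 and 15.7 FPKM, and wild types with AngII had 41.4, 49.6, 32.0, 37.3 and 65.2 FPKM. Knockouts with saline had 63.1, 11.99, 122, 14.0 and 15.1 FPKM, and knockouts with AngII had 12.1, 34.7, 43.8, 85.1 and 29.7 FPKM. Knockouts with saline held both the highest and the lowest value of the series, with a coefficient of variation of 106% against 40.4% in wild types with saline. The group means were 33.7, 45.1, 45.2 and 41.1 FPKM in the same order, and no pair of them differed beyond the spread. The AngII difference in wild types was +0.47 (95% interval -0.72 to 1.67), and the knockout differences were -0.10 under saline (95% interval -1.30 to 1.10) and -0.34 under AngII (95% interval -1.54 to 0.86). The sign of the last 2 turned in fits with the lymph node level as a covariate, at +0.62 and +0.56 (limma adjusted p = 0.285 and 0.341).

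Icam1, the ligand of the leukocyte integrins LFA-1 and Mac-1, repeated the pattern on a smaller range. Wild types with saline had 24.2, 21.6, 28.1, 33.0 and 12.8 FPKM, and wild types with AngII had 23.1, 30.3, 21.2, 23.1 and 36.8 FPKM. Knockouts with saline had 36.2, 8.43, 43.8, 9.31 and 10.7 FPKM, and knockouts with AngII had 7.54, 9.37, 20.7, 28.8 and 19.4 FPKM. The 5 knockout libraries of low lymph node level were the only 5 below every wild type library, and knockout saline libraries 1 and 3 were among the 3 highest of all 20. The mean was 25.4 ± 6.87 FPKM in wild types and 19.4 ± 12.9 FPKM in knockouts (SD, n = 10 each), a difference of -0.57 (95% interval -1.22 to 0.07, limma adjusted p = 0.303). With the lymph node level as a covariate it was +0.11 (limma adjusted p = 0.481).

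Selp, stored as protein in endothelial cells and platelets, was the steadiest of the 8, within 2.67-fold over all libraries. Its group means were 4.67 ± 0.573 and 3.83 ± 1.45 FPKM in wild types with saline and AngII, and 3.71 ± 0.867 and 4.31 ± 0.960 FPKM in knockouts with saline and AngII (SD, n = 5 each). All 4 comparisons overlapped, with log2 differences between -0.28 and +0.18. The largest interval bounds were -0.67 and 0.56, so Selp is bounded more tightly than the other members tested. The platelet list, 6 of whose 10 genes passed 1 FPKM in 5 libraries, had mean levels from 1.53 to 1.84 in the 4 groups.

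Sele, which endothelium makes on activation by cytokines, was low throughout, from 0.174 to 1.35 FPKM, and reached 1 FPKM in 3 libraries. Wild types with saline had 0.466, 0.357, 0.186, 0.174 and 0.289 FPKM, knockouts with saline 0.341, 0.593, 0.485, 0.383 and 1.16 FPKM, and the ranges overlapped. The reads recovered from these values were 318 and 651 in all. The difference was +0.28 on the log2 scale (exact permutation test over 252 arrangements, two-sided p = 0.0476). It stood at p = 0.0556 in the exact test with a pseudocount of 0.1, and at an adjusted p of 0.635 when limma was run with no filter on low values. With AngII the means were 0.503 ± 0.366 FPKM in wild types and 0.831 ± 0.336 FPKM in knockouts (SD, n = 5 each, exact permutation p = 0.135). Unlike Vcam1 and Icam1, Sele was at 0.383 to 1.35 FPKM in the 5 libraries of low lymph node level and at 0.341 to 0.937 FPKM in the 5 other knockouts.

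**Figure D2:**
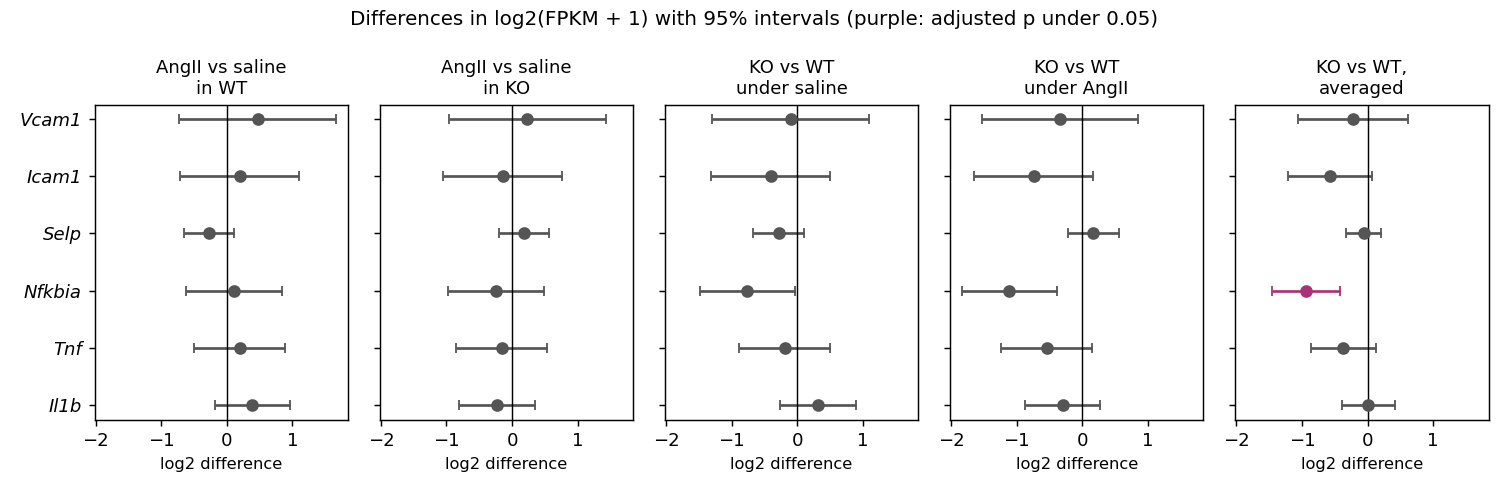
Difference in log2(FPKM + 1) (horizontal axis) of the 6 tested members in 5 comparisons, with limma's 95% intervals. The intervals of Nfkbia lie below 0 in the 3 comparisons of knockout with wild type, and the averaged one alone passes the adjusted threshold (purple).

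Among the cytokines, Tnf had the widest range, 77.3-fold. Wild types with saline had 0.804, 0.891, 1.27, 1.75 and 0.337 FPKM, and wild types with AngII had 0.646, 1.14, 1.38, 1.31 and 1.93 FPKM. Knockouts with saline had 2.51, 0.127, 1.96, 0.224 and 0.0326 FPKM, and knockouts with AngII had 0.0325, 0.227, 0.979, 1.35 and 0.464 FPKM. The 5 knockouts of low lymph node level were again the only 5 below every wild type library, and there the recovered reads numbered 4 to 28 per library. The knockout difference was -0.19 under saline (95% interval -0.88 to 0.51) and -0.54 under AngII (95% interval -1.24 to 0.15, limma adjusted p = 0.415), and neither passed. Under saline the sign turned with the lymph node level as a covariate, to +0.24 (limma adjusted p = 0.432), and without the 5 libraries, to +0.72 (limma adjusted p = 0.162). Under saline the last fit kept knockout libraries 1 and 3 alone, and the libraries left out held the lowest Tnf values.

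Il1b, which needs cleavage by the inflammasome to become active, had 0.692, 0.898, 0.746, 1.61 and 0.446 FPKM in wild types with saline and 1.46, 1.23, 0.863, 1.28 and 2.52 FPKM in wild types with AngII. The groups overlapped, since saline libraries 2 and 4 lay above the lowest AngII library, and the difference was +0.39 (95% interval -0.18 to 0.97, limma adjusted p = 1.00). The level of the neutrophil list was 1.69 ± 0.291 with saline and 2.61 ± 0.417 with AngII in wild types (SD, n = 5 each, exact permutation p = 0.0159, adjusted over 56 comparisons of lists 0.518), and its part in the Il1b values was not tested. Knockouts with saline spread from 0.210 to 3.30 FPKM and knockouts with AngII from 0.637 to 1.80 FPKM. The highest of these, knockout saline library 3, also had the highest neutrophil level of the series, 5.18.

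Il6 was near the limit of detection. In knockouts with saline it was listed at 0 in 4 of 5 libraries and held 4 reads in library 4 (0.0224 FPKM). Wild types with saline held 12, 10, 8, 17 and 22 reads (0.0688, 0.146, 0.0463, 0.123 and 0.268 FPKM), and knockouts with AngII held 8, 9, 12, 25 and 16 reads (0.0454, 0.0990, 0.0685, 0.249 and 0.0912 FPKM). Both groups lay above every knockout library with saline. Among the 15010 genes tested, which leave out Il6, 1.28% had groups that did not overlap for knockout against wild type under saline. For AngII in knockouts that share was 0.426%. The summed reads were 17.2 times as many in wild types with saline (69 against 4, 95% interval 6.44 to 65.1) and 17.5 times as many in knockouts with AngII (70 against 4, 95% interval 6.54 to 66.0), and these intervals cover counting error only. Each comparison gave the smallest p that the exact permutation test allows at this size, 0.00794 two-sided, and 8 such comparisons were made over Sele and Il6. In limma with no filter the adjusted p over all genes was 0.699 and 1.00. Wild types with AngII held 36, 12, 5, 4 and 103 reads, and the difference from saline there turned from +0.15 to -0.013 without library 5. The absolute size is small: no library reached 1 FPKM.

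The 8 genes can be read against the whole transcriptome by their calls. For AngII in wild types limma called 0 of the 6 tested members and 0.0% of 15010 genes (458 genes at an unadjusted p under 0.05, none of them a member, and 0 called by limma-voom on recovered reads). For AngII in knockouts it called 0 of 6 members and 0.0% of genes (595 at an unadjusted p under 0.05, no member among them, and 0 by voom). Averaged over genotypes, 0 of 6 members and 0.0% of genes were called (512 at an unadjusted p under 0.05). For the interaction of genotype and treatment, 0 of 6 members and 0.0% of genes were called (501 at an unadjusted p under 0.05). Knockout against wild type called 0 of 6 members and 0.0133% of genes under saline, and 0 of 6 members and 1.83% of genes under AngII. Of the members Nfkbia alone was at an unadjusted p under 0.05 in each. So were 1106 of the 15010 genes under saline and 2593 under AngII. Voom called no member in either. None of the 6 had groups that did not overlap, against 0.613% and 0.426% of genes for AngII in wild types and knockouts, and 1.28% and 5.21% for knockout against wild type under saline and AngII.

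Under AngII, 5 of the 6 members were lower in knockouts (median difference -0.44), and so were 62.0% of all genes tested (median -0.10). Selp was the exception, at +0.17. Quantile normalization moved the median of all genes in that comparison to +0.03, and relative to the unnormalized median the difference of Nfkbia was -1.01.

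The lymph node level and 4 of the members, Icam1, Vcam1, Tnf and Il1b, ran together by Pearson's r within the 15 libraries above the gap in that level. On rho Tnf and Il1b did not pass. Since the 20 libraries formed 2 clusters, correlations with lists and between members are given in the upper 15 only. Group means were removed, and 100000 permutations were made within groups. Icam1 followed the lymph node list most closely (r = 0.978, rho = 0.954, permutation p = 3e-05 and 5e-05, adjusted over 112 pairs 0.00112 and 0.0028). Leaving out the 2 libraries farthest from the median of the list gave r = 0.951, and the 10 wild type libraries alone gave r = 0.981. With the same list Vcam1 gave r = 0.868 and rho = 0.85 (adjusted permutation p = 0.00747 and 0.0155). Tnf gave r = 0.839 and rho = 0.707 with it (adjusted permutation p = 0.0196 and 0.0781). Vcam1 followed the T and NK cell list (r = 0.907, rho = 0.889, permutation p = 0.00039 and 0.00064, adjusted 0.00688 and 0.0143) and gave r = 0.853 without the 2 libraries. With the macrophage list Vcam1 gave r = 0.874 and rho = 0.911 (permutation p = 2e-05 for each, adjusted 0.00112 and 0.00224, r = 0.944 without 2 libraries). Tnf followed the B and plasma cell list (r = 0.934, rho = 0.832, permutation p = 0.00032 and 0.00176, adjusted 0.00688 and 0.0219), with r = 0.879 without the 2 libraries, and ran against the smooth muscle list (r = -0.808, rho = -0.829, permutation p = 0.00043 and 0.00118, adjusted 0.00688 and 0.0189, r = -0.729 without 2 libraries). Il1b passed on r with the lymph node list (r = 0.746, rho = 0.693, permutation p = 0.00175 and 0.00988, adjusted 0.0178 and 0.0745, r = 0.726 without 2 libraries), the macrophage list (r = 0.754, rho = 0.704, permutation p = 0.00598 and 0.0177, adjusted 0.0419 and 0.0944, r = 0.64 without 2) and the T and NK cell list (r = 0.695, rho = 0.679, permutation p = 0.00591 and 0.0138, adjusted 0.0419 and 0.0781, r = 0.635 without 2). With the neutrophil list it did not (r = 0.639, rho = 0.607, permutation p = 0.102 and 0.0784, adjusted 0.31 and 0.276, r = 0.415 without 2 libraries). No adhesion gene among the members passed with the endothelial list. There r was 0.628 for Vcam1, 0.383 for Icam1, 0.3 for Selp and -0.068 for Sele (adjusted permutation p = 0.194, 0.503, 0.621 and 0.875).

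For Nfkbia the coefficient with the lymph node list in these 15 libraries was r = 0.52 (rho = 0.586, adjusted permutation p = 0.295 for r), which did not pass, and whether it differs from that of Icam1 was not tested. Its highest coefficients were with the endothelial list (r = 0.788, rho = 0.693, permutation p = 0.00227 and 0.00785, adjusted 0.0196 and 0.0733) and the fibroblast list (r = 0.701, rho = 0.739, permutation p = 0.00252 and 0.00384, adjusted 0.0202 and 0.043). Without the 2 libraries these were r = 0.718 and 0.622. Of the 112 pairs of a member and a list, 18 passed on Pearson's r. For Selp the only such pair was with skeletal muscle (r = -0.729, rho = -0.671, permutation p = 0.00738 and 0.0258, adjusted 0.0459 and 0.126). In these 15 libraries the skeletal muscle list lay either between 0.609 and 1.851 or between 4.536 and 8.855. That coefficient thus joins 2 clusters of the list level. What these levels contribute to the group differences was not tested. The covariate fits given above cannot fully tell lymph node level and genotype apart, since all 5 libraries below the gap were knockouts. The lists share library and depth with the members.

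**Figure D3:**
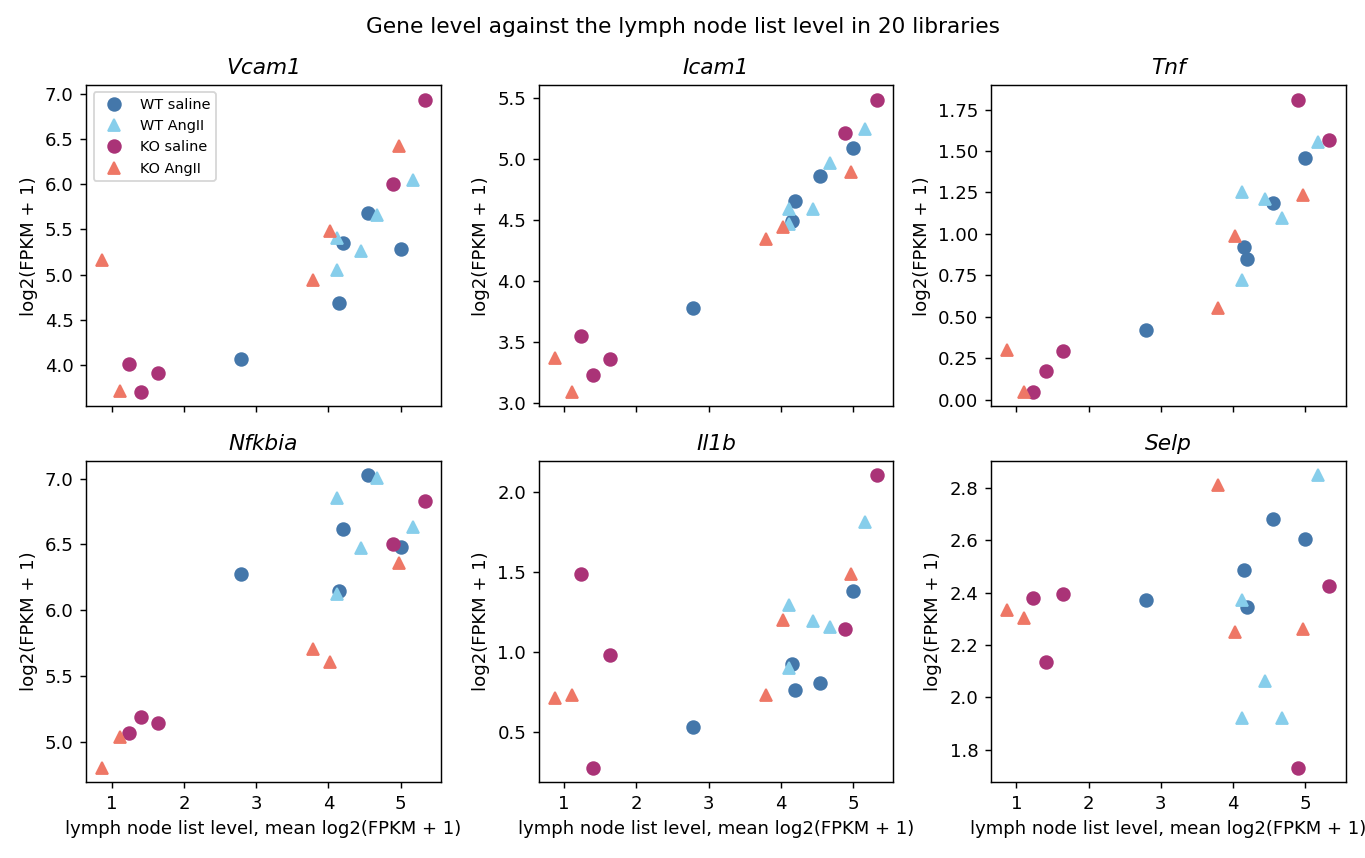
log2(FPKM + 1) of 6 members (vertical axes) against the mean log2(FPKM + 1) of the lymph node list (horizontal axes) in 20 libraries, coloured by group, with circles for saline and triangles for AngII. The 5 knockouts at list levels up to 1.64 stand apart from the other 15, Icam1 and Tnf lie along a line, and Selp shows none.

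Among the members themselves 4 of 28 pairs passed in the same 15 libraries. Vcam1 and Icam1 ran together most closely (r = 0.88, rho = 0.854, permutation p = 0.00015 and 0.00022, adjusted 0.0042 and 0.00616, r = 0.83 without 2 libraries). Vcam1 with Nfkbia gave r = 0.767 (rho = 0.789, permutation p = 0.00449 and 0.00329, adjusted 0.0419 and 0.0307, r = 0.731 without 2 libraries). Icam1 with Il1b gave r = 0.734 (rho = 0.732, permutation p = 0.00188 and 0.00297, adjusted 0.0263 and 0.0307, r = 0.694 without 2 libraries). Icam1 with Tnf gave r = 0.779 (rho = 0.65, permutation p = 0.00636 and 0.0228, adjusted 0.0445 and 0.127, r = 0.585 without 2 libraries). No pair with Sele, Selp or Il6 passed, and the difference between these coefficients and those that passed was not tested.

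The genes most like each member, by Pearson's r over 20 libraries (both lymph node clusters) with group means removed, are given as a description. They were Ncf1, Marcksl1 and Was for Icam1 (r = 0.994, 0.991 and 0.986), of which Ncf1 encodes a subunit of the phagocyte NADPH oxidase and Was a regulator of actin in blood cells. For Vcam1 they were Tnfrsf1b, Adgre5 and Myo1e (0.969, 0.968 and 0.968), of which Tnfrsf1b encodes a TNF receptor. For Tnf they were Slfn8, Kif20b and Ripk3 (0.986, 0.985 and 0.984), and for Nfkbia Rnf166, Rpl10-ps1 and Rps3 (0.972, 0.963 and 0.96). Those of Il1b were Tm6sf1, Noc3l and Zbtb6 (0.919, 0.872 and 0.87). Those of Selp were Hoxb9, Pdpn and Lgi2 (0.867, 0.835 and 0.818), and Pdpn encodes podoplanin, a protein of lymphatic endothelium and stroma. Within the upper 15 libraries the coefficients of these 18 genes ran from 0.784 (Noc3l with Il1b) to 0.987 (Marcksl1 with Icam1), and the points share library and depth.

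Around Nfkbia, the list of 23 other NF-κB subunits, kinases and feedback genes held 1 called gene. Nfkbib, which encodes the related inhibitor IκBβ, had 22.8, 26.8, 18.5, 22.1 and 25.0 FPKM in wild types with AngII and 15.6, 12.9, 13.9, 15.5 and 14.3 FPKM in knockouts with AngII. These groups did not overlap, as was so for 5.21% of all genes tested. Nfkbib fell by 0.63 ± 0.15 (SE) on the log2 scale (limma adjusted p = 0.0439) and, averaged over treatments, by 0.39 ± 0.11 (limma adjusted p = 0.0483). In the averaged comparison 4.15% of all genes were called. Knockouts with saline had 26.9, 14.2, 23.7, 15.6 and 14.2 FPKM, with libraries 1 and 3 above the other 3 as for Nfkbia. The averaged call was lost in 26 of 31 other fits, 17 of them among the 20 that each left out 1 library (limma adjusted p from 0.0117 to 0.102), and with the lymph node level as a covariate the averaged difference was -0.23 (limma adjusted p = 0.123). Under AngII the call held in 2 of 10 fits that each left out 1 library (limma adjusted p from 0.0259 to 0.136), and with the lymph node level as a covariate the difference was -0.46 (limma adjusted p = 0.0559). In the same comparison 20 of the 23 list genes were lower (median -0.49, against 62.0% lower and a median of -0.10 for all genes), 1 of them called, where 1.83% of all genes were. Leukocyte and lymph node markers were also lower there, with 10 of 10 T and NK cell genes (median -1.81), 10 of 10 B and plasma cell genes (median -1.67), 8 of 8 lymph node genes (median -1.52) and 11 of 12 macrophage genes (median -0.55), none of them called. Their part in the values of the 3 pathway lists was not tested. The smallest p-values beside Nfkbib belonged to Tnip2, which encodes a partner of the deubiquitinase A20 (-0.61, limma adjusted p = 0.139), and to Ikbkg, the regulatory subunit of the IκB kinase (+0.53, limma adjusted p = 0.184).

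The list of cytokine partners (other cytokines, receptors and signal transducers) had 32 of 36 genes tested. Under AngII 26 of them were lower in knockouts (median -0.37) and 0 were called, beside the same 62.0% lower and 1.83% called of all genes. The smallest p-values belonged to Map3k7, the kinase TAK1 that relays TNF and interleukin 1 signals (+0.28, limma adjusted p = 0.124), Tradd, an adaptor of the TNF receptor (-0.67, limma adjusted p = 0.218), and Pycard, the inflammasome adaptor (-0.91, limma adjusted p = 0.226). The leukocyte adhesion list had 29 genes tested, 20 lower in knockouts under AngII (median -0.16) and 0 called. Its smallest p-values belonged to Itgav, an integrin subunit (+0.80), Pecam1, an endothelial junction protein (+0.50), and Selplg, the leukocyte ligand of P-selectin (-1.52), with limma adjusted p-values of 0.221, 0.297 and 0.299.

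For AngII in wild types no gene of the 3 lists was called, and 17 of 23 NF-κB genes, 24 of 32 cytokine partners and 16 of 29 adhesion genes were higher, with medians of 0.14, 0.09 and 0.08. Of all 15010 genes tested, 8050 were higher and 46.4% lower, with a median of 0.017. The smallest p-values belonged in the first list to Otud7b (-0.98), Nfkbiz (+0.26) and Nfkbib (+0.16), in the second to Socs3 (+0.77), a feedback inhibitor of interleukin 6 signalling, Tradd (+0.45) and Map3k7 (-0.15), and in the third to Itgb1, Cd34 (+0.27) and Alcam (+0.28), all with a limma adjusted p of 1.00. Itgb1, the β1 subunit that pairs into the receptor of VCAM-1, stood at 141 ± 38.2 FPKM with saline and 72.3 ± 97.0 FPKM with AngII in wild types (SD, n = 5 each), a spread larger than its mean in the second group. In knockouts the AngII differences had medians of -0.18, -0.16 and -0.11 in the same 3 lists, with 17, 25 and 19 genes lower and none called. Among all genes tested 61.3% were lower there (median -0.059). Knockout against wild type under saline gave medians of -0.16, -0.04 and -0.16, with 18, 19 and 21 genes lower and none called. In that comparison 57.1% of all genes tested were lower (median -0.044).

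**Figure D4:**
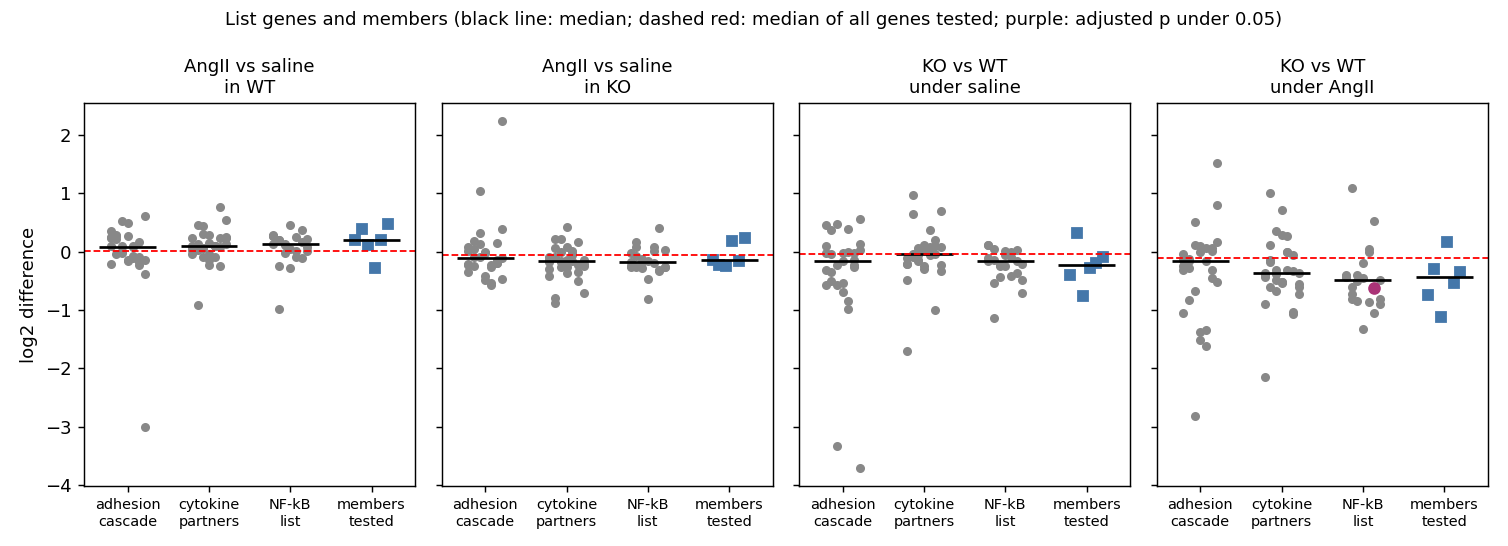
log2 differences (vertical axis) of the genes of 3 lists and of the 6 tested members in 4 comparisons, with 1 point per gene, the median as a black line and the median of all genes tested as a dashed red line. Under AngII the NF-κB list lies lowest, with a median of -0.49, and Nfkbib (purple) is the only list gene past the threshold.

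Summed values hide which transcripts were counted. The main transcript model held 97.8% of Icam1, 99.4% of Nfkbia, 90.7% of Selp and 89.9% of Il1b over all libraries, and Tnf and Sele had 1 model each. Il6, at its few reads, was divided over 3 coding models, Il6-201 with 38.3%, Il6-203 with 32.2% and Il6-204 with 29.5%. Vcam1 was also divided. Its full model, Vcam1-201 (9 exons, chr3:116109949-116129688), held 82.3% and the shorter coding model Vcam1-203 (5 exons, chr3:116122280-116129457) 16.1%. The share of Vcam1-203 was 17.9 ± 5.22% and 16.0 ± 2.92% in wild types with saline and AngII, and 20.3 ± 8.59% and 22.4 ± 12.7% in knockouts with saline and AngII (SD, n = 5 each). It reached 42.6% in knockout AngII library 2, the library whose Vcam1 sum lies far above the other 4 of low lymph node level, at 34.7 against 11.99 to 15.1 FPKM. There Vcam1-203 alone stood at 14.8 FPKM, the highest of the 20 libraries. That library also had the highest mesothelium list level of the 20 (2.78) and the lowest levels of the Schwann cell (2.498), white adipocyte (8.06), neutrophil (1.23), platelet (1.20), T and NK cell (0.736) and lymph node (0.873) lists, and their part in its Vcam1 values was not tested. None of 20 comparisons of a main transcript's share between groups had an exact permutation p under 0.05.

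**Figure D5:**
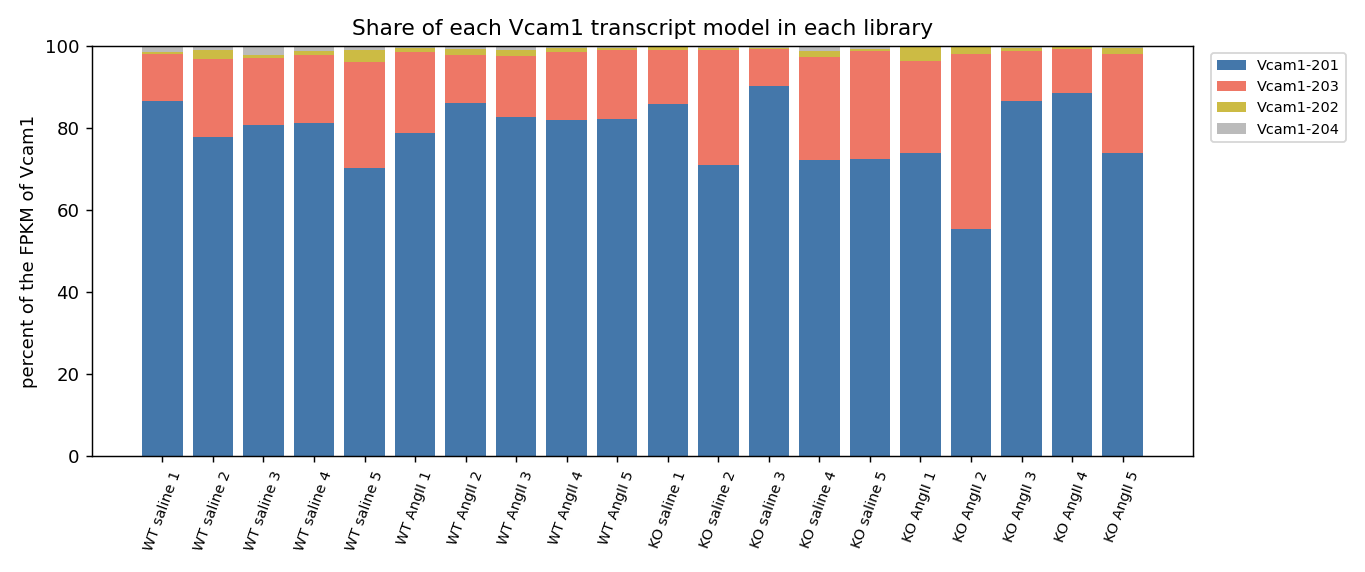
Share of the Vcam1 FPKM held by each of 4 transcript models (stacked bars, percent) in the 20 libraries. Vcam1-203 takes 42.6% in knockout AngII library 2 and 8.93% in knockout saline library 3, the library of highest Vcam1.

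By position (mm10, GENCODE M21) the genes lie at chr3:116109949-116129688 (Vcam1, minus strand), chr9:21015985-21028817 (Icam1, plus), chr1:164048234-164057677 (Sele, plus), chr1:164115264-164150026 (Selp, plus), chr2:129364570-129371139 (Il1b, minus), chr17:35199381-35202007 (Tnf, minus), chr5:30013114-30019981 (Il6, plus) and chr12:55489410-55492647 (Nfkbia, minus). Sele and Selp are neighbours on chromosome 1, yet did not pass as a pair in the upper 15 libraries (r = 0.603, rho = 0.429, permutation p = 0.0712 and 0.158, adjusted 0.178 and 0.451, r = 0.253 without 2 libraries).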

How the data were processed

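The authors deposited 1 table per library with a value for each of 126719 transcript models, which was read as FPKM from its steps: multiplied by transcript length, between 99.49% and 99.65% of low values fell within 0.1 of a whole read. The genome build mm10 and limma are named in the submitters' processing notes, and no source used here names the aligner or the counter. Libraries were made from total RNA depleted of ribosomal RNA, per the labels' protocols.

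Ensembl transcripts were assigned to genes with GENCODE M21 (109913 of 110082 matched) and summed. The unannotated models, between 10.6% and 12.9% of the FPKM of a library, were left out. All 20 libraries entered 1 fit of log2(FPKM + 1) in limma 3.58.1 (R 4.3.3, trend and robust), with Benjamini-Hochberg adjustment over 15010 genes, two-sided, at 0.05. A fold change on this scale understates the change of low genes. Members under the filter of 1 FPKM in 5 libraries, transcript shares and list levels were compared with exact permutation tests (scipy 1.17.1). Reads that do not overlap 1 gene only cannot be assigned without strand, and 4 of the 8 members overlap another annotated gene. P-values measure the spread between mice as labelled.

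The members, 3 pathway lists and 14 marker lists were chosen with earlier results of these data known. Genes named from a pathway list are called genes and the 3 of smallest p in each comparison described, and the genes most like a member are the 3 of highest r, leaving out members and predicted loci. The covariate for lymph node level and the fits and correlations without 5 libraries were chosen after seeing the data.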

Additional observations from a re-analysis of the deposited data

Results flagged for a closer look

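Dixon's limit of 0.71 was applied to 52 sets of 5 libraries (8 genes and 5 transcript shares in 4 groups). Genes were taken as log2(FPKM + 1) and shares in percent, although FPKM is printed below. In 6 sets 1 library lay farther from the others than the limit allows, and chance alone does so in about 1 of 20 sets. Selp stood at 6.02 FPKM in knockout AngII library 5, against 3.76 to 4.04 FPKM in the other 4. Il6 was at 0.0224 FPKM in knockout saline library 4, where the other 4 were listed at 0. With 4 libraries tied at 0 any value above 0 passes the limit, so that set was bound to be flagged. In knockout AngII library 4 Il6 was at 0.249 FPKM, against 0.0454 to 0.0990 FPKM. The share of Icam1 in its main transcript was 98.9% in wild type saline library 5, against 97.7% to 97.9%, and 95.7% in wild type AngII library 3, against 98.2% to 99.1%. The share of Nfkbia in its main transcript was 96.4% in knockout AngII library 2, against 99.1% to 99.7%.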

How the results depend on the processing

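Over 4 comparisons no alternative called a member, apart from Nfkbia for knockout against wild type under AngII (0 to 1 members without single libraries). Averaged over treatments 1 member was called, and 0 under quantile normalization (Nfkbia -0.79, limma adjusted p = 0.0558), under the replicate block (0 members, Nfkbia -0.94, limma adjusted p = 0.0601) and without the 5 libraries of low lymph node level (0), with 0 to 1 without single libraries and Nfkbia between -1.07 and -0.85. The replicate number only names mice (same-numbered libraries correlated at a mean of -0.03), and the block changed no other call on a member. Genes called under AngII fell from 275 to 70 with the block and to 1 with the compared groups alone. The split of 143 higher and 480 lower calls turned to 429 and 245 with quantile normalization and 400 and 238 with scaling in the manner of TMM. Under AngII 59 higher and 216 lower calls became 250 and 124, and 208 and 162.

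Directions turned where the difference was small against its error; the causes were not tested. Without single libraries the AngII difference in wild types ran from -0.003 to 0.32 for Icam1 and from -0.013 to 0.23 for Il6, and in knockouts from -0.09 to 0.74 (Vcam1), -0.38 to 0.19 (Icam1), -0.34 to 0.10 (Tnf) and -0.46 to 0.026 (Nfkbia). Knockout differences of Vcam1 ran from -0.61 to 0.20 under saline and -0.66 to 0.018 under AngII, and averaged ones from -0.11 to 0.019 (Selp) and -0.10 to 0.12 (Il1b). With the lymph node level as a covariate the AngII difference of Nfkbia in wild types was -0.021, and the knockout differences were 0.62, 0.56 and 0.59 (Vcam1, under saline, AngII and averaged), 0.20, 0.016 and 0.11 (Icam1), 0.24 and 0.12 (Tnf, saline and averaged) and 0.009 (Il1b under AngII). Without the 5 libraries they were 1.46, 0.13 and 0.80 (Vcam1), 0.78 and 0.28 (Icam1, saline and averaged), 0.72 and 0.24 (Tnf) and 0.16 (Nfkbia under saline), and AngII in knockouts gave -0.86 for Vcam1. That fit kept knockout saline libraries 1 and 3 and knockout AngII libraries 3, 4 and 5 alone. The libraries left out held the lowest values of Icam1, Tnf and Nfkbia. Averaged knockout differences were 0.011 and 0.019 for Selp under quantile and TMM-like scaling, and -0.049 and -0.009 for Il1b with a pseudocount of 0.1 and with voom.

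For Sele in knockouts against wild types under saline the difference was 0.76 with a pseudocount of 0.1 (exact p = 0.0556), 0.28 with no filter (limma adjusted p = 0.635) and 0.17 to 0.34 without single libraries (exact p from 0.0317 to 0.0952). Under AngII it ran from 0.20 to 0.43 and for AngII in knockouts from 0.11 to 0.32. With no filter limma gave Il6 0.14 for AngII in knockouts (adjusted p = 1.00) and -0.17 for knockouts under saline (adjusted p = 0.699). Of the transcript shares, 0 to 1 passed without single libraries. Over all 20 libraries 8 pairs of members and 28 pairs with lists passed, against 4 and 18 in the upper 15. The call on Nfkbib was lost in 16 of 22 fits under AngII and 26 of 31 averaged over treatments. Depth limits Tnf in its lowest libraries, at 4 to 28 reads, and Il6 in knockouts with saline, at 0 to 4 reads.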
